A study of Homo sapiens with 18 samples.

Results

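The comparison described here sets WA against WK, that is, bladder cancer cells with WWOX and AP-2α introduced by lentivirus against cells with WWOX and an empty vector in place of AP-2α. Its members were the 6 libraries whose labels end in WA or WK, out of 18 libraries in the series, with 1 WA and 1 WK library from each of 3 established bladder carcinoma lines (CAL-29, HT-1376 and RT-112). WWOX was delivered in the first stable transduction and AP-2α (WA) or a blank control (WK) in the second, both at a multiplicity of infection of 3, with selection in puromycin at 1 µg/mL after the first and in G418 at 400 µg/mL for 3 weeks after the second, so both sides share transduced WWOX, the pair of transductions and both drugs. A further comparison used here is KA against KK, the same AP-2α vector against its blank control in cells that carried a blank control in place of WWOX. Each variant is 1 population of drug-selected cells per line, the line is the only replicate (n = 3), and no library was repeated within a line.

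WWOX is a tumour suppressor with WW domains that binds proline-rich motifs of partner proteins. AP-2α and AP-2γ, encoded by TFAP2A and TFAP2C, are transcription factors that bind GC-rich DNA as dimers and shape epithelial and keratinocyte gene programmes, and both carry a motif that WWOX can bind, which can hold them in the cytoplasm. The comparison asks how the transcriptome differs when AP-2α is added to cells that already carry extra WWOX. RNA 5′ ends were counted by CAGE-seq, which traps the cap of RNA and sequences the start of each molecule, and the values are counts per gene scaled to library size (CPM). A change below is the difference in log2(CPM + 0.5) between WA and WK of the same line, so positive values are higher in WA, and genes with at least 5 CPM in 1 or more of the 6 libraries were kept, 12483 of 16575. In bulk RNA, fewer cells expressing a gene and less RNA per cell cannot be told apart.

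The transduced genes were measured first. TFAP2A was 20.3 CPM in WK and 25.3 in WA of RT-112, 76.9 and 69.9 in HT-1376, and 61.7 and 86.7 in CAL-29. The library labelled HT-1376 WA therefore had no more TFAP2A than its WK partner, and the WA to WK ratios of the other two lines were 1.25 (RT-112) and 1.41 (CAL-29). In KA against KK the same gene was higher in 3 of 3 lines, with ratios of 2.60, 1.46 and 1.41 in the same order. The mean change of TFAP2A in WA against WK was 0.22 ± 0.32 (SD, n = 3; exact two-sided sign-flip permutation p = 0.5, with 0.25 the smallest p that 3 lines allow). TFAP2C, whose product was not introduced in WA, was 56.2 and 180 CPM in WK and WA of RT-112, 69.0 and 98.0 in HT-1376, and 93.1 and 79.9 in CAL-29, so that the library labelled RT-112 WA held 3.20 times the TFAP2C of its partner, above the 143 CPM of the RT-112 library transduced with WWOX and AP-2γ. WWOX was 22.3 and 18.95 CPM in RT-112, 18.6 and 19.2 in HT-1376, and 155 and 69.3 in CAL-29. Only in CAL-29 did the WK library exceed the double control KK (63.7 CPM), and there WA was close to KK. A vector transcript that does not start at the native promoter need not be counted on the gene, so these values do not show the level of the introduced protein. Directions below rest on the labels, and WA and WK name libraries by label.

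**Figure D1:**
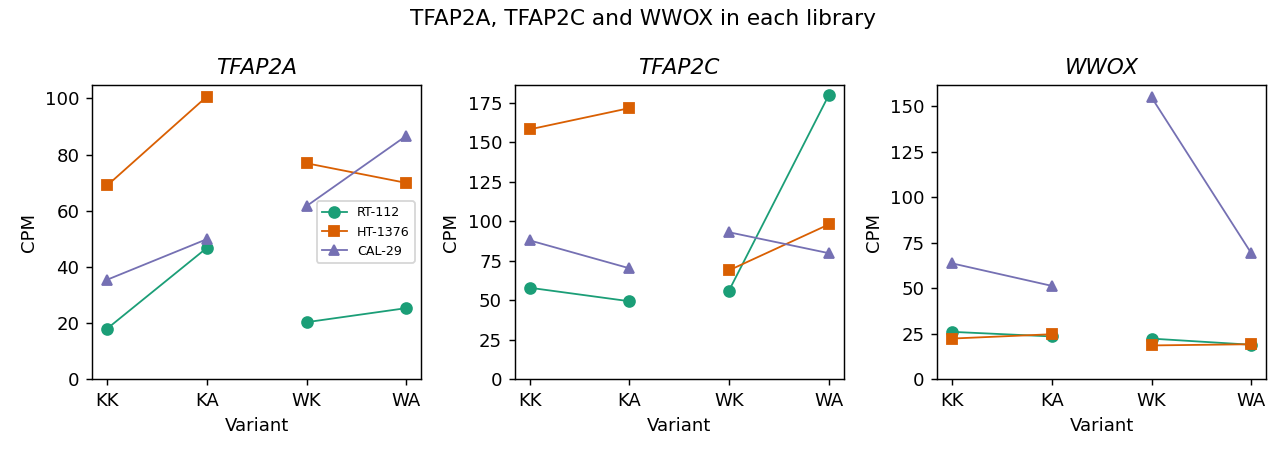
CPM of TFAP2A, TFAP2C and WWOX (1 panel each, linear axis from 0) in the KK, KA, WK and WA library of each cell line, with lines joining the libraries compared. TFAP2A is higher in KA than KK in 3 of 3 lines and higher in WA than WK in 2 of 3, TFAP2C reaches 180 CPM in RT-112 WA, and WWOX stands at 155 CPM in CAL-29 WK against 69.3 in WA.

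The 6 libraries had 14697809 to 17383090 reads on genes, and the 10 most abundant genes took 5.00% to 9.75% of them. Genes particular to the KK library of 1 line (9 for RT-112, 47 for HT-1376, 68 for CAL-29) were counted in the WA and WK libraries of that line (9 of 9, 42 or 43 of 47, and 56 or 59 of 68 at 10% or more of the KK level), while in the WA and WK libraries of the other lines at most 1 gene of a set reached that level, except that 12 of the 68 CAL-29 genes did in each HT-1376 library. Urothelial and epithelial markers were high in every library (summed 7615 to 22585 CPM, KRT7 highest), fibroblast markers summed to 10.05 to 41.05 CPM in WK and 16.03 to 63.98 in WA (6 of 9 listed in the table), endothelial markers to at most 0.38 CPM (CDH5, 1 of 8 listed), and haematopoietic markers to 0.22 to 4.30 CPM in WK and 0.60 to 3.38 in WA (2 of 10 listed). None of the fibroblast, endothelial or haematopoietic markers in the table was at 0 in all lines of a side.

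No gene passed the test over the 3 lines. With limma and the cell line as a block, 0 of 12483 genes had a Benjamini-Hochberg adjusted p under 0.05 (0%), and the smallest adjusted p was 0.430. An unadjusted p under 0.05 was found for 1199 genes higher in WA (9.61%) and 186 lower (1.49%). edgeR and limma-voom with the same block also called 0 genes, whereas DESeq2 called 35, of which 17 were higher and 18 lower in WA and 32 had the same direction in 3 of 3 lines. Without the line as a block limma called 0 genes, with 2 higher and 1 lower at an unadjusted p under 0.05. The paragraphs that follow therefore describe sizes and directions line by line, and no gene is called changed by the main test.

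The size of the difference varied between lines. At 2-fold or more, 304 genes were higher and 303 lower in WA of RT-112 (2.44% and 2.43%), 771 and 125 in HT-1376 (6.18% and 1%), and 1564 and 634 in CAL-29 (12.5% and 5.08%). Across the 12483 genes the changes correlated with r = -0.01 between RT-112 and HT-1376, 0.20 between RT-112 and CAL-29, and 0.22 between HT-1376 and CAL-29. These are correlations across genes, which are not independent replicates. The pair of RT-112 and HT-1376 shared 16 genes at least 2-fold higher in both and 15 lower in both, against 45 that went opposite ways by 2-fold or more. In CAL-29, WA correlated with KK (r = 0.96 over the log2 levels) more than with WK (0.93), and 63.5% of genes lay nearer to KK than to WK, compared with 51.7% in RT-112 and 40.9% in HT-1376. WA correlated with KK and WK at 0.980 and 0.978 in RT-112 and at 0.924 and 0.976 in HT-1376. The correlation of WK with KK was 0.89 in CAL-29, 0.91 in HT-1376 and 0.99 in RT-112. KK is printed beside some of the values below.

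Across all genes, 2917 were higher in WA in 3 of 3 lines (23.4%) and 1229 lower (9.85%). At 1.5-fold or more in each line, 261 were higher (2.09%) and 25 lower (0.2%), and at 2-fold or more 7 were higher (0.0561%) and 3 lower (0.024%). This asymmetry moved with the scaling of the libraries, since the median change of all genes was 0.00, 0.12 and 0.19 (RT-112, HT-1376, CAL-29). With TMM scaling, under which these medians were 0.00, 0.02 and 0.00, 2386 genes were higher and 1846 lower in 3 of 3 lines (19.1% and 14.8%). The direction also moved with transcript length. Among genes whose canonical GENCODE transcript was over 4139 nt, 35.8% were higher and 5.75% lower in 3 of 3 lines, while among those of up to 2128 nt 12.8% were higher and 14.1% lower. The median change of the long transcripts was 0.03, 0.30 and 0.39 (RT-112, HT-1376, CAL-29), whereas in KA against KK they stood at 0.24 in HT-1376 and -0.70 in CAL-29. The part of transcript length in the results below was not tested, and the gene lists described below are given also after subtracting from every gene the median change of genes of like length.

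**Figure D2:**
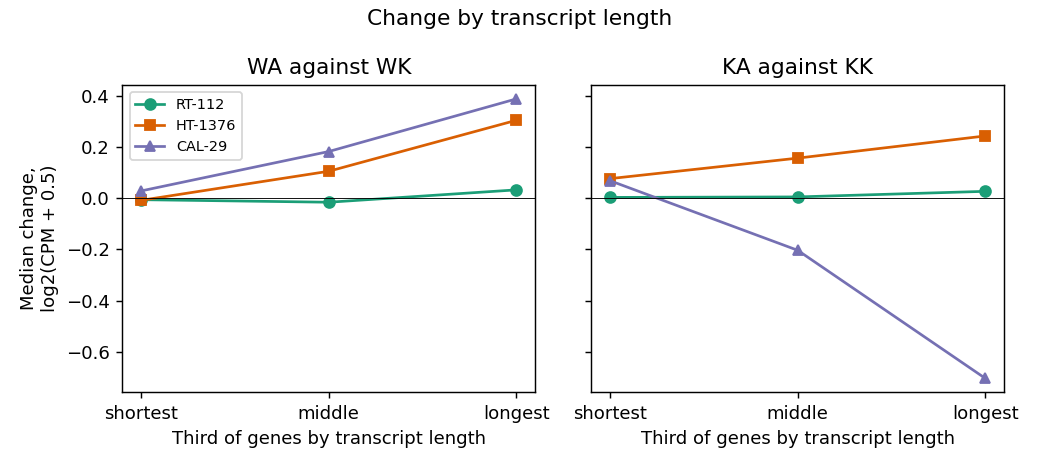
Median change in log2(CPM + 0.5) of genes in 3 equal groups (shortest, middle, longest) by canonical transcript length, for WA against WK (left) and KA against KK (right), 1 line per cell line. In WA against WK the longest group is highest in 3 of 3 lines, and in KA against KK the CAL-29 values run the other way, to -0.70.

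The genes that follow were ranked by the smallest of their 3 within-line changes, among genes of the same direction in 3 of 3 lines with at least 5 CPM in the higher library of each pair (1454 higher, 956 lower), and the 12 first in each direction are described. Their size and common direction chose them and are descriptions, with no test. The last gene admitted among the higher ones was DDX1, with a smallest change of 0.92, and the next was SLC38A1 with 0.91. Among the lower ones the last was ACTR3C with 0.58 and the next KIAA0513 with 0.57.

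L1CAM (X:153861514-153886173, minus strand, GRCh38), which encodes a neural cell adhesion molecule also made by invasive carcinomas, headed the higher genes. L1CAM was 0.98 CPM in WK and 12.7 in WA of RT-112, 10.1 and 29.01 in HT-1376, and 6.69 and 79.9 in CAL-29. All 3 WA values lay above all 3 WK values, the highest WK being that of HT-1376 and the lowest WA that of RT-112. The changes were 3.16, 1.48 and 3.48, with a mean of 2.71 ± 0.40 (SE; limma adjusted p = 0.430; DESeq2 adjusted p = 0.000115). L1CAM was also higher in KA than in KK in 3 of 3 lines, at 0.39 and 12.7 CPM (KK and KA) in RT-112, 94.97 and 224 in HT-1376, and 15.1 and 53.7 in CAL-29. The difference between the WWOX and control backgrounds was 0.40 ± 1.16 on the log2 scale (SE; limma interaction adjusted p = 0.966).

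The next genes by rank were COPB2, MBNL2, MIR3652, HSP90B1 and GFPT1. COPB2 (3:139353946-139389736, minus strand), a subunit of the COPI coat that returns vesicles to the endoplasmic reticulum (ER), was 4.19 and 10.8 CPM in WK and WA of RT-112, 5.56 and 12.97 in HT-1376, and 16.9 and 55.5 in CAL-29, where KK held 58.5 CPM. HSP90B1 (12:103930107-103953931, plus strand), the ER chaperone GRP94, was 44.6 and 91.8 CPM in RT-112, 95.02 and 196 in HT-1376, and 198 and 3029.9 in CAL-29. The changes of HSP90B1 were 1.03, 1.04 and 3.93, and CAL-29 KK stood at 2740.3 CPM and KA at 482, so WA was close to KK there and WK was the low library. MIR3652 lies within HSP90B1 and had the same values within 5%, so its reads cannot be told apart from those of the host gene. GFPT1 (2:69319780-69387250, minus strand), the first enzyme of the hexosamine pathway that feeds glycosylation, was 7.13 and 20.3 CPM in RT-112, 9.46 and 19.7 in HT-1376, and 35.2 and 163 in CAL-29, where KK held 169.7 CPM. All 3 lines of GFPT1 were more than 2-fold higher in WA, and its limma adjusted p was 0.430.

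MBNL2 (13:97221434-97394120, plus strand), a splicing regulator of the muscleblind family, had changes of 1.18, 1.04 and 1.95 in RT-112, HT-1376 and CAL-29, from 4.30 to 10.4, 5.91 to 12.7 and 10.3 to 41.2 CPM, with CAL-29 KK at 58.9 CPM. In CAL-29 WK was thus the low library for COPB2, HSP90B1, GFPT1 and MBNL2 when set against KK and WA. WK was the low library in HT-1376 as well, with KK at 11.6, 163, 17.9 and 10.5 CPM for these genes. In RT-112 KK stood at 4.60, 55.6, 6.54 and 4.82 CPM, nearer to WK than to WA. HSD17B12, which acts in the elongation of long-chain fatty acids, had changes of 1.09, 1.01 and 1.13, the most even of the 12. ELP2, a subunit of the Elongator complex that modifies transfer RNA, had 1.24, 1.00 and 1.29. YME1L1 and LRPPRC, a mitochondrial inner membrane protease and a factor that stabilises mitochondrial messenger RNA, had smallest changes of 0.98 and 0.96, CEBPZ, of ribosome biogenesis, of 0.95, and the RNA helicase DDX1 of 0.92. For these 12 genes the sign of the mean held in each alternative tried. COPB2, HSP90B1, YME1L1 and CEBPZ overlap other genes on the opposite strand, as TP73 and ACTR3C do among the lower genes, and whether strand was used in counting is not given in the sources used here.

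The KA and KK libraries took no part in this choice. Of the 12 genes, 12 were higher in KA than KK in RT-112 and 11 in HT-1376, where 51.4% and 68.1% of all genes were, but 1 in CAL-29 (L1CAM), where 36.8% were. These counts take MIR3652 and HSP90B1, which share reads, as separate genes. In RT-112 the changes of HSD17B12 and MBNL2 were only 0.01 and 0.02. Over all genes 11.6% were higher in KA in 3 of 3 lines and 9.47% lower, and of the 12 genes 1 was higher and 0 lower. The median length of the 12 canonical transcripts was 3769 nt, against 2997 nt for all genes.

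**Figure D3:**
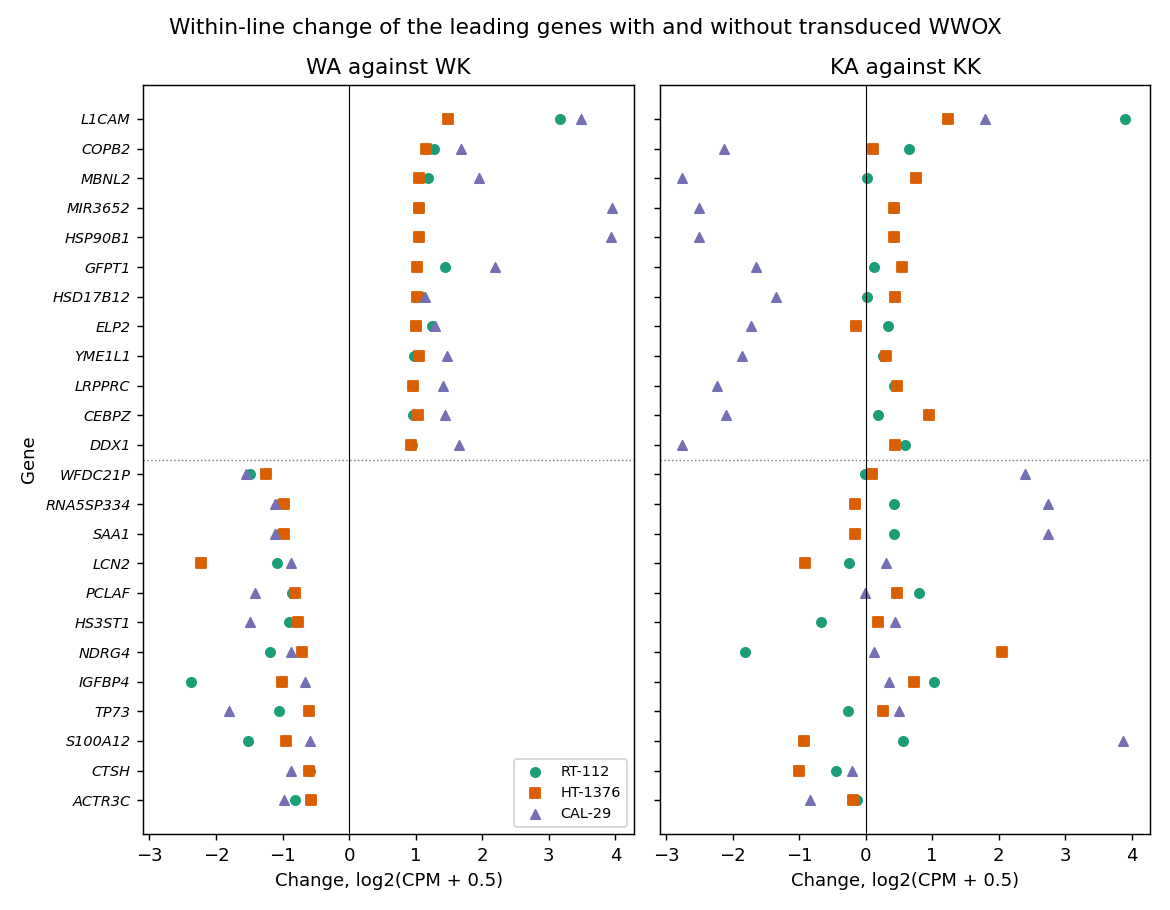
Within-line change in log2(CPM + 0.5) of the 12 higher and 12 lower genes (above and below the dotted line) for WA against WK (left) and KA against KK (right), 1 point per cell line. On the left all points of a gene share a sign by choice, and on the right L1CAM stays positive in 3 of 3 lines while the CAL-29 points of the other higher genes are negative.

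The 12 genes lower in WA included LCN2, SAA1, WFDC21P and S100A12. LCN2 (9:128149071-128153453, plus strand), lipocalin 2, which withholds iron carriers from bacteria, was 1286 CPM in WK and 605 in WA of RT-112, 139 and 29.3 in HT-1376, and 2465 and 1342 in CAL-29. WA was below WK in every line, and KK was 654, 24.8 and 2572 CPM, so that WA was close to KK in RT-112 and HT-1376 but below it in CAL-29. The mean change of LCN2 was -1.40 ± 0.30 (SE; limma adjusted p = 0.430; DESeq2 adjusted p = 0.0132). SAA1 (11:18266260-18269977, plus strand), an acute phase apolipoprotein, was 22.4 and 10.5 CPM in RT-112, 37.5 and 18.8 in HT-1376, and 19.8 and 8.89 in CAL-29, with changes of -1.06, -0.98 and -1.11. SAA1 has a near-identical neighbour, SAA2, and shares all of its counted reads with RNA5SP334, so its identity is uncertain. WFDC21P, a transcribed pseudogene of the whey acidic protein family on chromosome 17, ranked first, with changes of -1.49, -1.24 and -1.55 (12.6 to 4.19, 60.3 to 25.2 and 22.7 to 7.42 CPM). KK held 3.88, 13.9 and 0.84 CPM of WFDC21P, also below WA in each line. S100A12, a calcium-binding alarmin, was 12.3 and 3.97 CPM in RT-112, 10.7 and 5.30 in HT-1376, and 5.03 and 3.16 in CAL-29. The smallest change of S100A12 was -0.60, in CAL-29. KK held 5.10, 3.16 and 0.11 CPM of S100A12, above WA in RT-112 only.

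PCLAF (15:64364304-64387687, minus strand), a factor that binds PCNA during DNA synthesis, was 89.8 and 49.2 CPM in RT-112, 88.1 and 50.2 in HT-1376, and 179 and 67.0 in CAL-29. IGFBP4, which binds insulin-like growth factors, was 8.44 and 1.23 CPM in RT-112, 6.77 and 3.13 in HT-1376, and 22.9 and 14.2 in CAL-29. KK held 0.55, 0.59 and 15.6 CPM of IGFBP4, above WA in CAL-29 only. TP73, a p53 family member, had changes of -1.05, -0.61 and -1.81. The rest of the 12 were RNA5SP334, which has the values of SAA1 and so counts the same reads again, and HS3ST1, NDRG4, CTSH and ACTR3C. HS3ST1 (heparan sulphate sulfotransferase), NDRG4, CTSH (the lysosomal protease cathepsin H) and ACTR3C had mean changes of -1.05, -0.92, -0.69 and -0.79. In KA against KK 1 of the 12 genes was higher in 3 of 3 lines (IGFBP4) and 2 lower (CTSH and ACTR3C). The shares of all genes were 11.6% and 9.47%. Line by line, 9 of the 12 were higher in CAL-29 (36.8% of all genes), 6 in HT-1376 (68.1%) and 5 in RT-112 (51.4%). These counts take SAA1 and RNA5SP334, which share reads, as separate genes. The CAL-29 changes of S100A12 and SAA1 were the largest of the 12, at 3.86 and 2.74 on the log2 scale. The median canonical length of the 12 lower genes was 1645 nt.

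**Figure D4:**
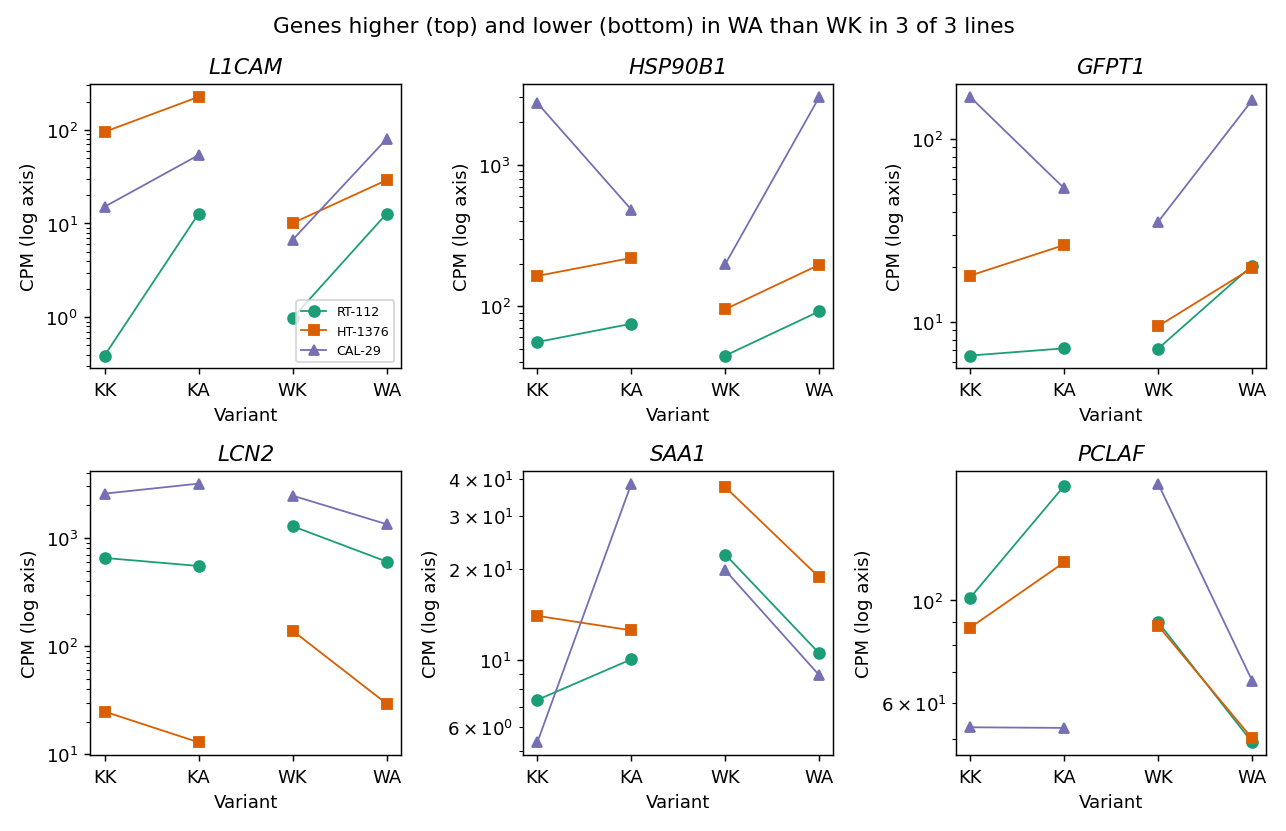
CPM (log axis) of L1CAM, HSP90B1, GFPT1, LCN2, SAA1 and PCLAF in the KK, KA, WK and WA libraries, with 1 marker per cell line and lines joining the libraries compared. HSP90B1 and GFPT1 in CAL-29 stand at like levels in KK and WA (2740.3 and 3029.9 CPM for HSP90B1) and are low in WK. In HT-1376 WK is also the lowest library shown for both genes.

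The promoters of the leading genes are shown because AP-2 factors bind GC-rich sites near start sites. The windows are the 250 bases before the RefSeq start (GRCh38.p14), 5′ to 3′ on the strand of the gene, for L1CAM (X:153875945-153876194, minus strand), COPB2 (3:139389681-139389930, minus strand), MBNL2 (13:97141584-97141833, plus strand) and LCN2 (9:128149203-128149452, plus strand), the first of the lower genes with an entry in the promoter table. The RefSeq starts of L1CAM, COPB2 and LCN2 lie inside the GENCODE gene and that of MBNL2 upstream of it, and the deposited gene totals do not tell which start was used.
L1CAM: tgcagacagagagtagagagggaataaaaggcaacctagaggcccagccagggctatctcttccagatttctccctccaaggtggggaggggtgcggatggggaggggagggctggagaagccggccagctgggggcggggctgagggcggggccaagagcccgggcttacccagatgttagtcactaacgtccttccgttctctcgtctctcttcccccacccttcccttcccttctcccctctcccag
COPB2: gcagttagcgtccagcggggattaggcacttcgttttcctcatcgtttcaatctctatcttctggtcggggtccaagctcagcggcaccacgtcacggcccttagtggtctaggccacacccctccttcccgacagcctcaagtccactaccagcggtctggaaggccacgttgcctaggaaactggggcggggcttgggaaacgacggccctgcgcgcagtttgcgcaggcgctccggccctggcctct
MBNL2: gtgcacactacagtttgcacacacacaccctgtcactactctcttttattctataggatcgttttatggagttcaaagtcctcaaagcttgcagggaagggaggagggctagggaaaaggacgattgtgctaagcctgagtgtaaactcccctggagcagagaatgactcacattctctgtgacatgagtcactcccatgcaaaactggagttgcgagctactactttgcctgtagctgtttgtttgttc
LCN2: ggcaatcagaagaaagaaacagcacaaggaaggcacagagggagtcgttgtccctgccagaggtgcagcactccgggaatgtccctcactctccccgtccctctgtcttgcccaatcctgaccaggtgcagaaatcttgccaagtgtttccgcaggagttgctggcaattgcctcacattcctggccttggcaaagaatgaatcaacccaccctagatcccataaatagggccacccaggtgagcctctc

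The AP-2 core motif GCCNNNGGC, which reads the same on both strands, was searched in these windows. Of the 24 leading genes 18 were in the promoter table, and the motif was in 2 of 9 higher genes (22.2%) and 1 of 9 lower genes (11.1%), compared with 28.3% of the promoters of genes past the filter and 19.8% of all promoters. The windows above held none, and their GC content was 62.4% (L1CAM), 62.4% (COPB2), 46.8% (MBNL2) and 54.8% (LCN2). The 3 matches are shown with up to 20 bases on each side and the motif in capitals, at 83 to 75 bases before the start in ELP2 (18:36129796-36129844, plus strand), 25 to 17 in CEBPZ (2:37231597-37231641, minus strand) and 74 to 66 in TP73 (1:3652422-3652470, plus strand).
ELP2: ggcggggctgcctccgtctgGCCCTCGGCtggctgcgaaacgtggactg
CEBPZ: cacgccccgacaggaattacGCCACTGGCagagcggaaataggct
TP73: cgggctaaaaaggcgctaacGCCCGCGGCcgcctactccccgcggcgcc

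Gene lists were read against the background of 23.4% higher and 9.85% lower in 3 of 3 lines. The ER chaperones and unfolded protein response genes, which are switched on when proteins misfold in the ER, had 8 of 25 members higher in 3 of 3 lines and 0 lower. The median of their mean changes was 0.91, but the line medians were 0.13, 0.03 and 2.29 (RT-112, HT-1376, CAL-29), against 0.00, 0.12 and 0.19 for all genes. HSPA5, the master ER chaperone BiP, was 60.3 and 87.4 CPM in WK and WA of RT-112, 157 and 331 in HT-1376, and 373 and 6795 in CAL-29. The CAL-29 KK library held 6321 CPM of HSPA5 and KA 3903. All 25 members were nearer to KK than to WK in CAL-29 WA, against 63.5% of all genes. The HT-1376 KK library held 369 CPM of HSPA5. Of the 25 members, 13 were nearer to KK in HT-1376 WA and 10 in RT-112 WA, against 40.9% and 51.7% of all genes. HYOU1 and CRELD2, an ER chaperone and an ER stress-induced protein, had changes of 3.81 and 4.06 in CAL-29 but -0.22 each in RT-112. SEL1L, of ER-associated degradation, and CANX, the lectin chaperone calnexin, were higher in 3 of 3 lines, with changes of 0.48, 0.98 and 2.97 and of 0.39, 1.34 and 2.29.

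The ATF4 amino acid response genes, which restore amino acid supply under stress, had 9 of 27 members higher and 1 lower in 3 of 3 lines. Their line medians were 0.38, 0.00 and 1.61. In CAL-29 WA 24 of the 27 were nearer to KK than to WK (88.9%, against 63.5% of all genes). MTHFD2, a mitochondrial folate enzyme, had changes of 0.51, 1.53 and 1.99, and ASNS, asparagine synthetase, was 4.96 and 7.88 CPM in RT-112, 12.4 and 21.7 in HT-1376, and 39.7 and 152 in CAL-29. TRIB3, a pseudokinase induced by stress, was higher in RT-112 (1.20) and CAL-29 (3.13) but lower in HT-1376 (-0.38). DDIT4, an inhibitor of mTORC1, was 100 and 566 CPM in RT-112 and 103 and 92.5 in HT-1376. Both genes were higher in WA in RT-112 and lower in HT-1376.

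The cholesterol and fatty acid synthesis genes had 12 of 31 members higher and 1 lower in 3 of 3 lines and line medians of 0.33, 0.22 and 0.64. In CAL-29 WA 28 of the 31 were nearer to KK than to WK (90.3%, against 63.5% of all genes). HMGCS1, at the entry of the mevalonate pathway, was 1.69 and 3.63 CPM in RT-112, 11.4 and 25.1 in HT-1376, and 13.2 and 28.8 in CAL-29, with changes of 0.92, 1.10 and 1.10. MSMO1, a later sterol enzyme, had 0.98, 0.61 and 1.29 and SCD, the stearoyl-CoA desaturase, 1.09, 0.24 and 2.12. After subtraction of the change of genes of like length the list median was 0.18, with 9 members higher and 1 lower in 3 of 3 lines, against 17% and 16.1% of all genes. The list median of KA against KK was -0.02, 0.54 and 0.55, in the same order of lines.

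The NRF2 and antioxidant genes had 12 of 33 members higher and 3 lower in 3 of 3 lines, with line medians of 0.36, -0.08 and 0.42. In CAL-29 WA 20 of the 33 were nearer to KK than to WK (60.6%, against 63.5% of all genes). TXNRD1, thioredoxin reductase, was 4.79 and 14.3 CPM in RT-112, 16.97 and 30.04 in HT-1376, and 65.8 and 145 in CAL-29. GCLC, which makes the glutathione precursor, had changes of 0.84, 0.68 and 1.12, and AKR1C3, an aldo-keto reductase, 1.04, 0.49 and 0.82. HMOX1, haem oxygenase, was higher in RT-112 (0.73) and CAL-29 (2.37) and lower in HT-1376 (-0.83). Of the aryl hydrocarbon receptor and its targets 3 of 10 were higher and 0 lower, with AHR itself at 8.71 and 14.6 CPM in RT-112, 42.0 and 62.2 in HT-1376, and 146 and 259 in CAL-29, whereas its classic target CYP1A1 had changes of 1.33, -0.05 and 0.54.

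**Figure D5:**
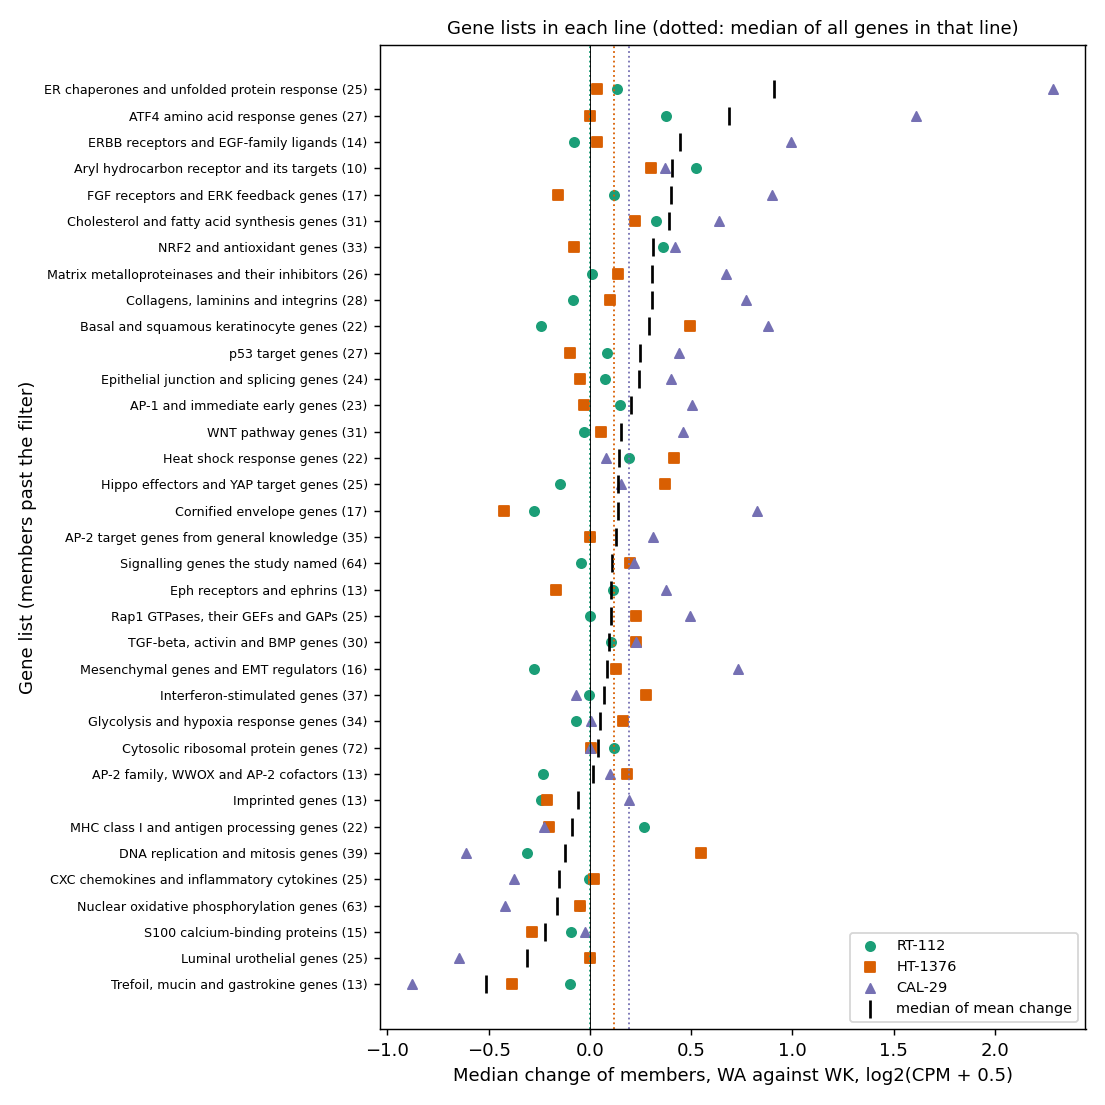
Median change of the members of each gene list in WA against WK, in log2(CPM + 0.5), with 1 symbol per cell line, a bar for the median of the mean changes and dotted lines for the median of all genes in each line. ER chaperones lie at 2.29 in CAL-29 and near the all-gene medians in RT-112 and HT-1376. The trefoil, mucin and gastrokine list, which also holds other secretory genes, lies lowest, at -0.51.

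Fewer lists were shifted towards WK. The nuclear oxidative phosphorylation genes, which encode subunits of the respiratory chain, had 22 of 63 members lower and 6 higher in 3 of 3 lines, with line medians of -0.05, -0.05 and -0.42. COX8A was 1219 and 1072 CPM in RT-112, 893 and 706 in HT-1376, and 531 and 288 in CAL-29, while ATP5F1A, a subunit of ATP synthase, was higher, with changes of 0.25, 2.14 and 0.52. These transcripts are short, with a median of 758 nt. After subtraction of the change of genes of like length 24 members were lower and 6 higher, against 16.1% and 17% of all genes. The list median was -0.16 before and after that subtraction. The part of length in this shift was not tested. The cytosolic ribosomal protein genes, also short and abundant, had 13 of 72 members higher and 4 lower, with a median of 0.04.

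The trefoil, mucin and gastrokine list, of products of secretory epithelium, had 5 of 13 members lower and 0 higher in 3 of 3 lines. Its line medians were -0.10, -0.38 and -0.88. The largest mean changes were those of PIGR, LCN2, WFDC2 and BPIFB1, which are not themselves trefoil, mucin or gastrokine genes. Besides LCN2, WFDC2, a secreted protease inhibitor, was 77.2 and 37.0 CPM in HT-1376 and 123 and 30.4 in CAL-29, at 0.33 and 0.17 in RT-112. PIGR, which carries IgA across epithelium, was 387 and 12.4 CPM in CAL-29 alone, with KK at 3.98. AGR2 and MUC4 went the other way in CAL-29, by 1.41 and 1.92. The S100 calcium-binding proteins had 5 of 15 members lower and 1 higher, with S100A9 at 7625 and 5394 CPM in RT-112, 12842 and 9738 in HT-1376, and 1538 and 1462 in CAL-29. The luminal urothelial genes had 5 of 25 lower and 2 higher, with a CAL-29 median of -0.65 and medians of 0.00 in the other two. PSCA was 294 and 403 CPM in RT-112 but 47.02 and 18.98 in HT-1376 and 47.6 and 1.42 in CAL-29, and UPK3B, a uroplakin of the umbrella cell surface, had -0.23, -1.35 and -0.63.

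The basal and squamous keratinocyte genes, a programme that AP-2 factors take part in, had 5 of 22 members higher and 1 lower in 3 of 3 lines, with line medians of -0.24, 0.49 and 0.88. ITGA6 and LAMA3, an integrin and a laminin chain of hemidesmosomes, had changes of 0.25, 0.91 and 0.69 and of 0.06, 0.62 and 1.03. KRT5, the basal keratin, was lower in RT-112 (-1.21) and higher in HT-1376 (1.88) and CAL-29 (0.54). Of the cornified envelope genes 2 of 17 were higher and 4 lower, and KLK5, a kallikrein of the skin surface, was 5.99 and 76.3 CPM in RT-112, 66.1 and 69.9 in HT-1376, and 0.06 and 6.87 in CAL-29, with 0.06 CPM being 1 read. KLK5 was also higher in KA than KK in 3 of 3 lines, at 1.22 and 35.9 CPM in RT-112, 1.84 and 26.7 in HT-1376, and 0.34 and 9.51 in CAL-29. SPRR1B, a cornified envelope precursor, was 18.1 and 2.12 CPM in RT-112, 235 and 151 in HT-1376, and 2.60 and 92.1 in CAL-29.

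Genes listed from general knowledge as AP-2 targets were counted against the same background. Of 35 past the filter 3 were higher (L1CAM, HSPA5 and CD44) and 3 lower (ERBB3, NECTIN2 and PRKCA) in 3 of 3 lines, with a median of 0.13 against 0.10 for all genes. L1CAM and PRKCA were also picked by the study in these samples, as AP-2 targets opposite in KA and WK with WA between them. Their directions here are therefore not independent of that choice. After subtraction of the change of genes of like length 2 were higher and 6 lower, and the median was -0.03. Of the AP-2 family, WWOX and AP-2 cofactors 1 of 13 was higher, NPM1, and 1 lower, or 1 and 4 after that subtraction. NPM1 was 72.9 and 96.4 CPM in RT-112, 116 and 209 in HT-1376, and 148 and 441 in CAL-29. NPM1, nucleophosmin, is a nucleolar chaperone that can bind AP-2α.

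DNA replication and mitosis genes divided by line, with medians of -0.31, 0.55 and -0.61, and 3 of 39 were higher and 7 lower in 3 of 3 lines. MCM2, of the replicative helicase, was 331 and 210 CPM in RT-112, 247 and 254 in HT-1376, and 231 and 106 in CAL-29. CCNE1, cyclin E1, had changes of -1.02, -0.11 and -1.22, and PCNA, the sliding clamp, -0.90, 0.28 and -0.82, while TOP2A was higher in 3 of 3 lines (0.78, 0.55 and 0.72). The ERBB receptors and EGF-family ligands had 3 of 14 higher and 1 lower, with medians near 0 in RT-112 (-0.08) and HT-1376 (0.04) and 0.99 in CAL-29. AREG and EREG, ligands of the EGF receptor, were 16.6 and 222 and 0.55 and 22.7 CPM in WK and WA of CAL-29, where KK held 150 and 12.3, and their HT-1376 changes were 0.40 and -0.11.

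After subtraction of the change of genes of like length, the list medians kept their direction for the ER chaperones (0.83, with 6 higher and 0 lower in 3 of 3 lines), the ATF4 genes (0.64, 8 and 1), the NRF2 genes (0.23, 11 and 3) and the aryl hydrocarbon receptor list (0.27, 3 and 0). So did those of the trefoil, mucin and gastrokine list (-0.49, 0 and 5), the S100 genes (-0.19, 1 and 4), the luminal genes (-0.38, 2 and 6) and the DNA replication genes (-0.15, 1 and 8). The basal and squamous list was nearer to 0 (0.08, 3 and 1), the cornified envelope list was at 0.17 (2 and 4), the ERBB list at 0.30 (3 and 1) and the ribosomal protein list at 0.05 (13 and 3). After that subtraction 17% of all genes were higher and 16.1% lower.

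The study's own signalling genes, drawn from its account of Wnt, Rap1, MAPK and related pathways and so not independent of these samples, had 13 of 64 members higher in WA and 8 lower in 3 of 3 lines, with a median of 0.11. With that subtraction 8 were higher and 15 lower, and the median was -0.01. L1CAM and HSP90B1 are among the higher members. MAP3K7, the kinase TAK1, had changes of 0.69, 0.73 and 0.80 (3.49 to 5.93, 8.20 to 13.9 and 23.8 to 41.8 CPM), GSK3B, a kinase of the Wnt pathway, 0.42, 1.10 and 0.46, and PIK3CB, a catalytic subunit of phosphoinositide 3-kinase, 0.36, 0.82 and 0.35. SEMA6A, a membrane semaphorin, was lower, at 7.57 and 3.97 CPM in RT-112, 1.15 and 0.58 in HT-1376, and 11.1 and 1.58 in CAL-29. PRKCA, protein kinase C alpha, had -0.59, -0.61 and -0.78, and MAPK3, the kinase ERK1, -0.27, -0.21 and -0.42. In HT-1376 PRKCA was only 0.75 CPM in WK and 0.32 in WA, and its lowest library held 5 reads.

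Of the 64 members, 43 did not have one sign in 3 of 3 lines, and over all genes 8337 of 12483 did not. CTNNB1, beta-catenin, was 27.2 and 18.0 CPM in RT-112, 37.6 and 167 in HT-1376, and 53.2 and 97.1 in CAL-29. THBS1, thrombospondin 1, had changes of -1.03, 1.74 and -0.33, RAC1 -0.62, 0.25 and 0.06, and SOS1, a Ras exchange factor, 0.51, -0.19 and 0.66. FGFR3, a receptor often mutated in luminal bladder tumours, was 144 and 114 CPM in RT-112 and 37.5 and 15.3 in CAL-29, with changes of -0.34, -0.01 and -1.26. STAT6 had -0.29, 0.13 and -0.83, and EFNA1, an ephrin, 0.47, 0.20 and -0.35. TGFB1 was lower in 3 of 3 lines by small amounts (-0.11, -0.40 and -0.08), while ITGA3 stood within 0.04 of 0 in each line.

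The strongest changes were also ranked within each line. In RT-112 the highest among genes with at least 20 CPM in the higher library were SUSD2, KLK5, OSGIN1, PADI3 and NEURL3, and the lowest TNNT3, SPINK4, PLA2G2A, FSTL4 and CRABP2. SUSD2, a sushi domain membrane protein, was 0.54 and 29.5 CPM in WK and WA of RT-112 and at most 0.17 CPM in WK and WA of HT-1376 and CAL-29, and KA exceeded KK in RT-112 as well, at 26.4 against 0.06 CPM. TNNT3, a skeletal troponin, was 47.9 and 10.4 CPM in RT-112, 85.6 and 41.4 in HT-1376, and 1.93 and 0.11 in CAL-29, and was lower in 3 of 3 lines. PLA2G2A, a secreted antibacterial phospholipase, was 122 and 29.6 CPM in RT-112 and 31.6 and 13.3 in CAL-29, and was listed at 0 in both HT-1376 libraries. With 0 reads the limit for a gene is 3 reads, worth 0.163 to 0.192 CPM in these libraries, which covers counting error only.

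In HT-1376 the highest included CCL2, HMGB1P5, DDX24 and ACAT2 and the lowest were XAGE1A, LCN2, CES1, C1orf68 and SDCBP2. CCL2, the monocyte chemoattractant, was 14.1 and 121 CPM in HT-1376 but 89.4 and 25.9 in CAL-29. XAGE1A, a cancer testis gene with a near-identical copy, was 198 and 7.03 CPM in WK and WA against 204 in KK and 246 in KA. Of the other lines, none held more than 0.05 CPM of it in WK or WA. In this gene the WA library stands alone among those of HT-1376 described here.

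In CAL-29 the highest were SPRR1B, ANXA6, EREG, SULF2 and MIR6864 and the lowest PIGR, PSCA, UBD, MAN1A1 and PLAT. ANXA6, an annexin, was 1.33 and 42.2 CPM in CAL-29, and was higher in RT-112 (0.61) and HT-1376 (0.86) too. UBD, a ubiquitin-like modifier induced by interferon gamma and TNF, was 214 and 8.95 CPM against 5.27 in KK, and PLAT, tissue plasminogen activator, 111 and 6.82 against 13.9. CXCL1, a neutrophil chemokine, was 497 and 120 CPM in CAL-29 against 20.4 in KK, and NFKBIA, the inhibitor of NF-κB, 315 and 77.6 against 45.6. For PIGR, UBD, PLAT, CXCL1 and NFKBIA alike, CAL-29 WK was above KK and WA, although CXCL1 of WA was still 120 CPM.

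The AP-2α vector was compared between the WWOX and the control background. In an interaction model over the KK, KA, WK and WA libraries, limma called 0 of 12890 genes (0%), with 322 genes more positive and 109 more negative on the WWOX background at an unadjusted p under 0.05 and a smallest adjusted p of 0.887. Within a line the changes of WA against WK and of KA against KK, which share no library, correlated across genes with r = 0.23 for RT-112, 0.10 for HT-1376 and -0.38 for CAL-29 (12483 genes). The negative value in CAL-29 went with the length relation given above, which ran in opposite directions in these comparisons there, and the part of length in it was not tested. The number of genes higher in 3 of 3 lines in both comparisons was 155 (1.24%) and lower in both 138 (1.11%), while 182 (1.46%) were higher in WA against WK but lower in KA against KK and 223 (1.79%) the reverse.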

How the data were processed

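CAGE-seq libraries were made from total RNA by cap trapping and random priming. The authors mapped tags to hg38 with BWA and passed unmapped reads to HISAT2 (2.0.5 per the submitters' processing notes), clustered tags with Paraclu, filtered clusters by irreproducible discovery rate, and deposited CPM per gene with 2 decimals for 18 libraries. The annotation and the total behind the CPM are not given in the sources used here. The recovered reads came from the size of 1 read in each library: 99.97% to 99.99% of the values of the 6 libraries were whole multiples of it within 0.0055 CPM, against 12.6% to 14.5% with a wrong step. These counts entered edgeR, DESeq2 and voom.

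Identifiers were matched without version to GENCODE 44. Genes with at least 5 CPM in 1 or more of the 6 libraries were transformed to log2(CPM + 0.5) and tested with limma 3.58.1 in R 4.3.3 (trended empirical Bayes, cell line as block), since the same line supplied both libraries of a pair. The study's methods name limma-voom, which was an alternative with edgeR 4.0.16 and DESeq2 1.42.0. P-values measure the spread between 3 lines with 1 library a side. Fits were tested on simulated data with a common spread for all genes, which real genes need not share. There the main limma fit called 18 of 100 genes changed 2-fold and 95 of 100 changed 4-fold, with 3 unchanged genes called. DESeq2 called 38 and 99 of them, with 13 unchanged genes called. Named genes were TFAP2A, TFAP2C and WWOX, up to 12 a direction by smallest within-line change, 5 a direction in each line with at least 20 CPM, up to 4 members of each list by mean absolute change and any at least 2-fold in 3 of 3 lines, the study's signalling genes, and up to 5 a direction opposite between WA/WK and KA/KK. Members of lists described outside this rule were chosen after their values were seen. The members and lists were chosen with earlier results of these data known. Length was that of the canonical GENCODE transcript, in 20 bins of genes for the centred values. Other alternatives were pseudocounts of 0.05 and 2 CPM, other filters, TMM and quantile scaling, more libraries in the fit, and each line left out. Python 3.11.15 with pandas 2.3.3, SciPy 1.17.1 and matplotlib 3.10.9 was used. Some genes that the naming rule selects are not reported here.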

Additional observations from a re-analysis of the deposited data

Results flagged for a closer look

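Genes whose change had one sign in 3 of 3 lines in WA against WK and the opposite sign in 3 of 3 lines in KA against KK were flagged as differing between the WWOX and control backgrounds, 5 in each direction, ranked by the smallest of their 3 within-line gaps between the changes. The difference itself was tested in the limma interaction model, where each had an adjusted p of 0.887, so none passed. Genes of this kind made up 1.46% (higher in WA) and 1.79% (lower in WA) of all genes. Of those higher in WA, RN7SL2, a signal recognition particle RNA, had a mean change of 0.57 against a mean of -0.80 in KA against KK, COPA, a COPI coat subunit, 1.19, PRKCI, an atypical protein kinase C, 0.52, BEX2 0.93 and SNORD37, a small nucleolar RNA, 0.66. In KA against KK, COPA was at -0.04, -0.02 and -1.69, close to 0 in RT-112 and HT-1376. Of those lower in WA, DEFB1, the epithelial beta-defensin, had a mean change of -1.02, IGFBP4 -1.35, DUSP7, a phosphatase of ERK, -0.63, CD163L1 -0.90 and CCNE1 -0.79. In KA against KK IGFBP4 had changes of 1.02, 0.73 and 0.35. DEFB1 and CD163L1 were largest in CAL-29, at -1.65 and -2.20.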

How the results depend on the processing

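The count of 0 called genes in WA against WK held in each alternative but DESeq2, which called 35. The count of 0 in the interaction held in the limma alternatives that were run. DESeq2, edgeR and limma-voom were not run for the interaction. The smallest adjusted p over the limma alternatives ran from 0.245 (limma-voom) to 1.00 (no replicate block), and the block raised the genes at an unadjusted p under 0.05 from 2 higher and 1 lower to 1199 and 186. Leaving out any line gave 0 calls in both models. Counts at 1.5-fold in each line depended on most choices. The 261 higher genes became 392 and 87 with pseudocounts of 0.05 and 2 CPM, 172 with TMM, 67 with quantile normalization, 101 after centring on genes of like length (chosen after seeing the data), 7 at 2-fold, and 1113 without RT-112, 722 without HT-1376 and 359 without CAL-29. The 25 lower genes became 38 and 12, 49 with quantile normalization, 43 after centring, 16 with at least 5 CPM in 3 or more of the 6 libraries, 3 at 2-fold, and 113, 273 and 80 without those lines in turn. Such counts over 2 lines admit more genes by construction. Among genes in one direction in 3 of 3 lines, 70.4% were higher, 56.4% with TMM and 48.2% with quantile normalization. The mean change of the named genes kept its sign in all but 135 of 3851 values, and list medians in all but 34 of 370. Many named genes were chosen for size or common direction, so the first count is partly set by that choice.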

Other observations

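Further gene lists were read in the same way, against 23.4% of all genes higher and 9.85% lower in 3 of 3 lines. After centring on genes of like length these shares were 17% and 16.1%. The heat shock response genes had 6 of 22 members higher and 1 lower in WA in 3 of 3 lines, with medians of 0.19, 0.42 and 0.08 in RT-112, HT-1376 and CAL-29. HSPD1, the mitochondrial chaperonin, was 10.2 and 18.2 CPM in WK and WA of RT-112, 10.9 and 25.3 in HT-1376, and 30.3 and 85.3 in CAL-29, and HSPH1 had changes of 1.42, 0.72 and 0.73. Of the collagens, laminins and integrins 8 of 28 were higher and 3 lower, and after centring on genes of like length 3 were higher and 6 lower. Of the mesenchymal genes 2 of 16 were higher and 0 lower. TNC, the matrix protein tenascin C, was 3.00 and 3.63 CPM in RT-112, 38.4 and 156 in HT-1376, and 8.23 and 164 in CAL-29, where KK held 178. LOXL2, a collagen cross-linking oxidase, was higher in 3 of 3 lines, by 1.34, 0.95 and 4.35, with 0.38 and 1.73 CPM in RT-112.

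Of the CXC chemokines and inflammatory cytokines 0 of 25 were higher and 2 lower in 3 of 3 lines, with a CAL-29 median of -0.37. CXCL6 was 100.1 and 9.60 CPM in CAL-29. Of the MHC class I and antigen processing genes 3 of 22 were higher and 4 lower, with CANX, CALR and PDIA3 of the ER part at 2.29, 1.75 and 2.32 in CAL-29 while B2M, the light chain of class I molecules, had -0.08, -0.37 and -1.06. The interferon-stimulated genes had 7 of 37 higher and 4 lower and the AP-1 and immediate early genes 5 of 23 and 0. The Hippo effectors and YAP target genes had 6 of 25 and 2, and the imprinted genes 0 of 13 and 1. Over all genes 23.4% were higher and 9.85% lower. IGF2, an imprinted growth factor, was 400.4 and 261 CPM in RT-112 and 12.4 and 176 in CAL-29. After centring on genes of like length the medians were 0.12 for the heat shock genes (5 higher and 2 lower), 0.00 for the mesenchymal genes (2 and 0), -0.24 for the chemokines and cytokines (2 and 2) and -0.16 for the MHC class I list (2 and 4). They were 0.02 for the interferon-stimulated genes (5 and 5), 0.06 for the AP-1 list (5 and 1), -0.03 for the Hippo list (4 and 2) and -0.09 for the imprinted genes (0 and 2). After that centring 17% of all genes were higher and 16.1% lower.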
